A study of Mus musculus with 3 samples.

Results

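The Gimap genes encode the GTPases of immunity-associated proteins, a family that lies as a tandem array on mouse chromosome 6. The 8 members were taken by gene symbol from the GENCODE annotation of the mm9 genome assembly, out of 22350 protein-coding genes on the same 20 chromosomes, and they are Gimap8, Gimap9, Gimap4, Gimap6, Gimap7, Gimap1, Gimap5 and Gimap3 in order along the chromosome. The data are chromatin immunoprecipitation sequencing (ChIP-seq) maps of resting splenic natural killer cells (NKC) from ICR mice, with 1 sample per antibody and no treatment or genetic change. One list gives 15524 regions bound by the transcription factor Runx3 (here called peaks) and another gives 49902 regions marked by H3K4me1, the monomethylation of histone H3 at lysine 4, which is found at enhancers and beside active promoters. The remaining sample, precipitated with non-immune serum (NIS), was the control for peak calling and is not analysed separately here.

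Each gene was examined with 10 kb on either side of its body. The whole cluster, from the first to the last gene end with the same flanks, covers 139 kb (chromosome 6, 48587233 to 48726518). The lists give positions only, so the strength of binding and its error could not be compared, and with 1 list per antibody no test between groups was possible. Counts of genes, peaks or regions are therefore set beside the share of all genes, peaks or regions that meet the same rule, where it was counted. In these cells all 6 NKC marker genes (Ncr1, Klrb1c, Klrk1, Tbx21, Eomes and Prf1) had Runx3 peaks and H3K4me1 regions within 10 kb, against 44.3% and 70.4% of all protein-coding genes. Of genes listed as markers of T, B or myeloid cells, Cd8a, Cd8b1, Ms4a1 and Lyz2 had 0 of either. Cd4 and Csf1r had H3K4me1 without Runx3, and Cd3e, Cd3g, Cd79a, Pax5, Cd14 and Itgam had both. Whether NKC also express these genes was not examined.

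Gimap proteins share a GTP-binding domain and are made mainly in lymphocytes, where several members act on cell survival and on the traffic of membranes and organelles. Gimap5 is best known because its loss in rats and mice depletes peripheral lymphocytes, and Gimap1 is needed by mature B and T cells. Runx3 belongs to the RUNX family, whose members bind a short DNA consensus together with the partner protein Cbfb, and it is highly expressed in NKC.

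The cluster held 15 Runx3 peaks and 14 H3K4me1 regions, and most of it was marked. H3K4me1 regions covered 111 kb of it (79.9%), or 85.8% between the outer gene ends. From the end of Gimap5 through Gimap3 the cover was 22.1%. In the adjoining 100 kb on either side the cover was 17.7% before and 19.8% after the cluster, with 4 and 3 Runx3 peaks. When the 20 chromosomes were divided at fixed positions into 18936 tiles of the cluster's length, 0.0528% of tiles (10) held 15 or more peak midpoints and 0.0106% (2) had as much H3K4me1. Among 274 tiles with 8 or more starts of protein-coding genes, the median was 4 peaks and 18.4% cover. Of these, 0.365% (1 tile) reached the count of peaks and 0 reached the cover. The cluster window was drawn around its genes while the tiles were not, so these shares place the cluster and test nothing.

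**Figure D1:**
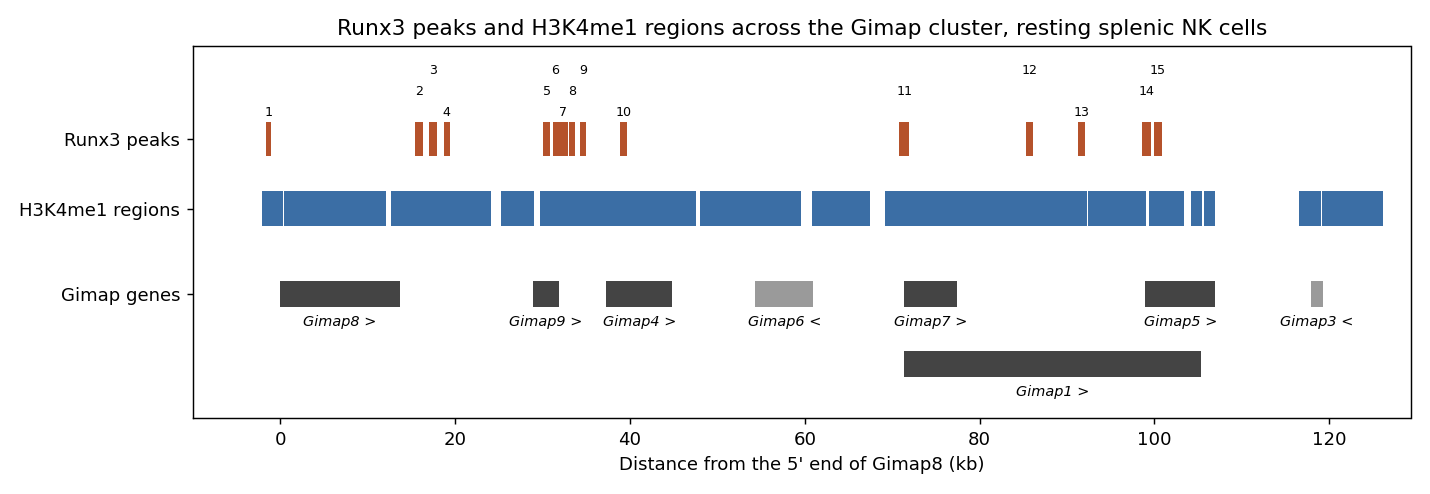
Map of the Gimap cluster, with the distance from the 5′ end of Gimap8 in kb on the x axis. The rows show the 15 Runx3 peaks numbered in order, the 14 H3K4me1 regions, and the 8 genes (dark, forward strand; light, reverse strand; Gimap1 drawn below as its longest model). Peaks stand in groups beside Gimap8, Gimap9 and Gimap5, and none lies between peak 10 in Gimap4 and peak 11 at Gimap7, or after peak 15.

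The peaks are numbered 1 to 15 along the chromosome. They were 558 to 1143 bp wide with a median of 829 bp, against 825 bp over all peaks. A total of 6 were intergenic and 9 touched a Gimap gene, and this split was not counted over all peaks. Peak 12 touched a gene only by the longest Gimap1 model. All 15 overlapped H3K4me1 (95.7% of all peaks did) and all 15 had their midpoint inside an H3K4me1 region, as did 83.6% of all peaks.

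The sequences that follow are the plus strand of mm9, 5′ to 3′, and come from the reference strain, not from ICR mice. They were chosen to show the DNA at the 3 bound Gimap starts and at peaks away from starts that differ in how the RUNX consensus is arranged. Capitals mark matches to the RUNX consensus (the word TGTGGT, the word TGTGGC, and likewise the word TGCGGT or the word TGCGGC) and to an ETS consensus (the word AGGAAGT or the word CGGAAGT), the binding sequence of the ETS factors, on either strand. A match on the reverse strand appears as its reverse complement, such as ACCACA for TGTGGT.

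The first 3 are the 250 bases before the starts of Gimap7, Gimap1 (short transcript) and Gimap5, which lie under peaks 11, 13 and 14. For Gimap7 they end just before the start of the long Gimap1 model (48668606), and for Gimap1 just before its RefSeq start (48689046). They held 2, 1 and 1 RUNX matches, and the Gimap5 stretch also held an ETS match. Counted from the Gimap7 start itself, the 250 bases before it held 1 RUNX match.

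Gimap7 upstream, chr6:48668356-48668605, forward strand: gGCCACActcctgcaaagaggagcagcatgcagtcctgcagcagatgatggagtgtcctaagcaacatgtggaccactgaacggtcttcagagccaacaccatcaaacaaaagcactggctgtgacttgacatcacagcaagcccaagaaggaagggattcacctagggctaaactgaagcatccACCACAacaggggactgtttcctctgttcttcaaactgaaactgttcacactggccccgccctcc

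Gimap1 upstream, chr6:48688796-48689045, forward strand: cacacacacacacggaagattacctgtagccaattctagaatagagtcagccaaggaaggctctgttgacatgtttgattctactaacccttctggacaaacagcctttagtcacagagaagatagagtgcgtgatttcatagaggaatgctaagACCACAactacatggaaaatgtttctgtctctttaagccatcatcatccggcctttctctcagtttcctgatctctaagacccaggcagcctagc

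Gimap5 upstream, chr6:48695946-48696195, forward strand: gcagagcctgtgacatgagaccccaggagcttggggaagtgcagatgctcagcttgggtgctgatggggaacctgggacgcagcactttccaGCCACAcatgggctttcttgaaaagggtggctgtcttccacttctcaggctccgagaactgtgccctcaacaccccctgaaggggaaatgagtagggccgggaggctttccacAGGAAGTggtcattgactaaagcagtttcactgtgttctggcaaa

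The next 4 are the centres of peaks 4, 8, 12 and 5. In peak 4, between Gimap8 and Gimap9, the RUNX match ends on the base at which the ETS match begins. Peak 8, between Gimap9 and Gimap4, has 3 copies of TGTGGT in both orientations, with 8 bases between the first and second. Peak 12 lies in an intron of the long Gimap1 model and shows 3 of the 4 RUNX variants, and peak 5 has a single match inside the coding exon of Gimap9.

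Peak 4 centre, chr6:48616215-48616364, forward strand: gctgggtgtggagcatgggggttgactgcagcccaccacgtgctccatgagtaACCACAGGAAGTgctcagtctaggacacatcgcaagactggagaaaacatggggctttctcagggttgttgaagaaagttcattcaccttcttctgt

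Peak 8 centre, chr6:48630469-48630718, forward strand: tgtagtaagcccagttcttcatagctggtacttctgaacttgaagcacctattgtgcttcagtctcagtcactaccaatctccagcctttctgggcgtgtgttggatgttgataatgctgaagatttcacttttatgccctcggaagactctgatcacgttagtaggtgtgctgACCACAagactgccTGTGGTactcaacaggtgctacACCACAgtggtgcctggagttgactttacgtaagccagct

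Peak 12 centre, chr6:48682808-48683057, forward strand: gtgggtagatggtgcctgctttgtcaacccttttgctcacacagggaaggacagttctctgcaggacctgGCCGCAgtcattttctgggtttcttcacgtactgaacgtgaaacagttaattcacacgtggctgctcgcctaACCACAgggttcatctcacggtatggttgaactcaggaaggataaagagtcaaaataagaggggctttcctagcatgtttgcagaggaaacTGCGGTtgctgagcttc

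Peak 5 centre, chr6:48627650-48627749, forward strand: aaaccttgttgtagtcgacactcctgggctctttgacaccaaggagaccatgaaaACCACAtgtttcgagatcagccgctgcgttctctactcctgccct

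The last is the distal part of peak 15, in the first intron of Gimap5. Here the capitals mark a T-box consensus (AGGTGTGA, on the reverse strand), an AP-1 consensus (TGACTCA) and a RUNX match, in this order.

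Peak 15 distal part, chr6:48697692-48697891, forward strand: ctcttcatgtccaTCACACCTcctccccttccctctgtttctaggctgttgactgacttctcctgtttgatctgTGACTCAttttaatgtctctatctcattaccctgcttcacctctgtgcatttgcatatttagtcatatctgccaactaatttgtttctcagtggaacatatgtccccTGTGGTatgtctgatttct

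Over whole peaks the RUNX consensus occurred in 13 of 15 cluster peaks, against 93.3% of all peaks, and in the central 200 bp in 10 of 15, against 69.1%. Peaks 6 and 9 had no match. The variant TGTGGT was found in 10 of the 15, TGTGGC in 6, TGCGGT in 4 and TGCGGC in 2, and the shares of all peaks were 65.5%, 54.1%, 24.7% and 26.1%. The median density was 2.69 matches per kb in the cluster and 2.96 over all peaks.

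Paired matches were few. Only peak 8 had 2 RUNX matches within 50 bp of each other (1 of 15, against 35.3% of all peaks), and only peak 4 had a RUNX and an ETS match that close (1 of 15, against 17.3%). An ETS match anywhere in the peak was found in 5 of 15, namely peaks 4, 10, 13, 14 and 15, against 41.8% of all peaks. The AP-1 consensus occurred in 1 of 15 (16.5% of all peaks) and the T-box consensus in 2 of 15, peaks 11 and 15 (5.92%). A match is a description of the sequence and does not show which factor was bound.

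The tandem array arose by duplication, but the bound sequences showed no similarity to one another at the threshold used, which can miss diverged copies. A comparison of the 15 peaks with BLASTN found 0 of 105 pairs with a shared stretch at an expect value of 1e-05. Since only uniquely aligned reads were used, the share of 40-base words (about the length of a read) that occur once in mm9 was counted as a guide to where reads could be placed. It was 96.2 to 100% within each of the 15 peaks and 94.1% over the cluster.

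Within 10 kb, 7 of the 8 genes had at least 1 Runx3 peak, and 44.3% of all protein-coding genes did. Gimap9 had the most with 7 peaks, followed by Gimap4 with 6, Gimap1 with 5, Gimap8 with 4, Gimap5 with 3, Gimap7 with 2, Gimap6 with 1 and Gimap3 with 0. Counts of 6 or more, reached by Gimap9 and Gimap4, were found for 1.32% of all genes. When peaks within 500 bp of each other were joined, Gimap9 fell to 4 and Gimap4 to 3, against 4 each for Gimap8 and Gimap1, and with peaks wider than the median of all peaks Gimap9 and Gimap4 had 2 each and Gimap1 had 4. The order and the counts of 6 or more thus rest on narrow peaks that stand close together. The genes lie close together, so that their windows share peaks and the 8 counts add up to more than 15.

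**Figure D2:**
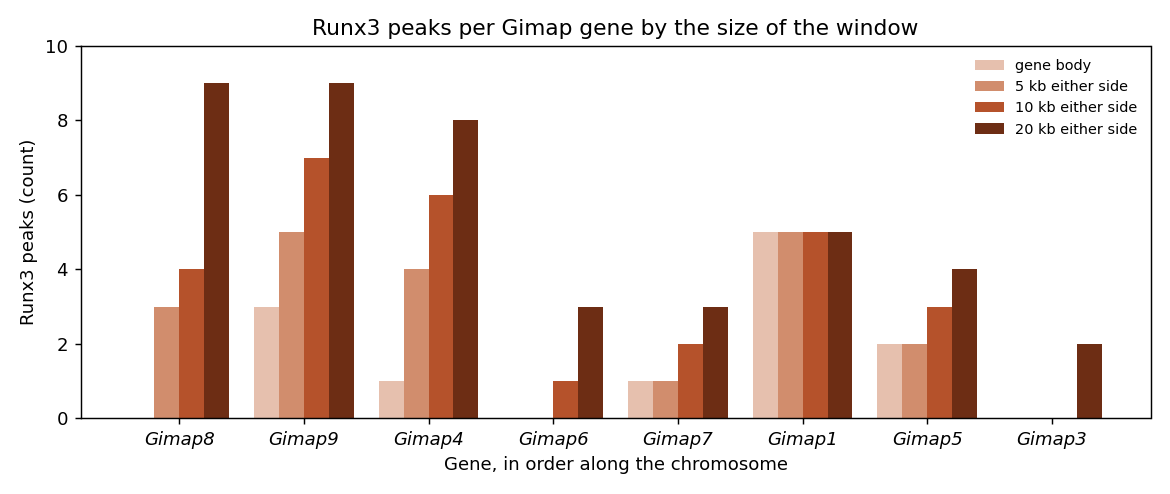
Number of Runx3 peaks (y axis) at each Gimap gene (x axis, in order along the chromosome), counted in the gene body and with 5, 10 or 20 kb on either side, 1 bar for each. Gimap9 and Gimap1 had 3 and 5 peaks in the body alone, whereas Gimap8, Gimap6 and Gimap3 had 0, and Gimap3 stayed at 0 up to 10 kb. The Gimap1 body is its longest model, which runs through Gimap7 into Gimap5. Its 5 peaks therefore include peaks 11 and 14 at the starts of those genes.

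Gimap8, the largest protein of the family with repeated GTP-binding domains, lies on the forward strand from 48597233 to 48610874. Peak 1 (48595596 to 48596153) stood 1.36 kb upstream of its start, and its body of 13.6 kb held 0 peaks. Behind its last exon came a group of 3 peaks, 2 (48612661 to 48613527), 3 (48614209 to 48615209) and 4 (48615933 to 48616647), in the 15.3 kb between Gimap8 and Gimap9. Their midpoints were 9.84 to 13 kb upstream of the Gimap9 start, and all 3 fell in a single H3K4me1 region of 11.4 kb.

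Gimap9 (48626128 to 48629113, forward strand) and the space up to Gimap4 held the densest run of binding, 5 peaks within 4.88 kb. Peak 5 (48627340 to 48628061) overlapped part of the coding exon of Gimap9, and peak 6 (48628386 to 48629002) overlapped its end. Peak 7 (48629043 to 48630185) ran from the last bases of the gene into the intergenic space. Peaks 8 (48630263 to 48630925) and 9 (48631496 to 48632220) lay 3.95 and 2.69 kb upstream of the Gimap4 start. Peaks 6 and 7 were 40 bp apart and peaks 7 and 8 were 77 bp apart. All 5 had at least 4 other midpoints within 5 kb, which held for 0.322% of all peaks. No peak lay over the first exon of Gimap9. Its count of starts with nearby binding rested on a second, shorter transcript that begins at 48627510, inside the coding exon.

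Gimap4, a member linked to lymphocyte apoptosis, spans 48634548 to 48642061 on the forward strand. Peak 10 (48636076 to 48636904) lay 1.94 kb inside the gene, mostly in the first intron and reaching the second exon. Together with peaks 5 to 9 it fell into 1 H3K4me1 region of 17.9 kb (48626901 to 48644796), which ran from Gimap9 past the end of Gimap4. Regions with 6 or more peaks made up 0.0862% of all H3K4me1 regions.

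Gimap6, a member linked to autophagy, is on the reverse strand from 48651581 to 48658224 and stood in the longest stretch between neighbouring peaks of the cluster, 31.1 kb from peak 10 to peak 11. H3K4me1 nevertheless covered 89.6% of that stretch, and 97.6% of its 40-base words were unique. The single peak in the Gimap6 window was the one at the Gimap7 start, which reached into it by 182 bp. With the midpoint rule, or with 5 kb in place of 10 kb, Gimap6 had 0 peaks.

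Gimap7, Gimap1 and Gimap5 lie next along the chromosome and were the 3 genes bound at the 5′ end. Peak 11 (48668043 to 48669159) was centred 19 bp before the start of Gimap7 (48668620 to 48674635, forward strand). The longest Gimap1 model of GENCODE (48668606 to 48702599) begins just before Gimap7 and runs through it into Gimap5, so the same peak counts as binding at both 5′ ends. The short Gimap1 transcript begins at 48689053, and peak 13 (48688539 to 48689282) covered this start and also lay in an exon of Gm3345, a noncoding gene on the reverse strand. Peak 12 (48682483 to 48683384) lay between Gimap7 and that start. By the short transcript Gimap1 had 4 peaks within 10 kb in place of 5.

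Gimap5 (48696196 to 48704209, forward strand) had peak 14 (48695798 to 48696790) over its start, with the midpoint 98 bp downstream, and peak 15 (48697184 to 48698081) centred 1.44 kb downstream of the start, in the first intron and over exons of noncoding Gimap5 transcripts. No further peak followed in the cluster. From peak 15 to the next peak on the chromosome there were 53.6 kb, in which Gimap3 lies (48715088 to 48716518, reverse strand). Gimap3 is a close relative of Gimap5, and 81.3% of the 40-base words of its body were unique, against 91.0% for Gimap5. Over the Gimap3 gene with 10 kb on either side the share was 85.8%, and the part of sequence uniqueness in the lack of peaks was not tested.

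By all annotated starts, 4 of the 8 genes (Gimap9, Gimap7, Gimap1 and Gimap5) had a peak midpoint within 1 kb of a start, against 27.2% of all protein-coding genes. By the 5′ end of each gene alone there were 3, against 24.7%. RefSeq starts, placed on mm9 by exact match of their 300-base start windows, also gave 3 (Gimap7, Gimap1 and Gimap5). All 8 genes matched, and the RefSeq start of Gimap3 was 4332 bp upstream of the GENCODE start, farther still from the nearest peak.

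All 8 genes had H3K4me1 within 10 kb, as did 70.4% of all genes, and all 8 had their 5′ end inside a marked region, against 34.5%. The gene bodies of Gimap4 and Gimap7 were covered completely. Cover of the body was 96.1% for Gimap1, 95.1% for Gimap8, 93.6% for Gimap3, 82.3% for both Gimap5 and Gimap6, and 79.3% for Gimap9. At least 80% cover, reached by 7 of the 8, was found for 3.99% of all protein-coding genes. The longest Gimap1 model, used here, contains Gimap7 and runs into Gimap5, so these genes share marked bases. The 5′ ends of Gimap7 and Gimap1 also lie in the same marked region. With 10 kb on either side the order changed, from 96.2% at Gimap4, 93.6% at Gimap7 and 92.2% at Gimap9 down to 60.4% at Gimap5 and 44.7% at Gimap3. Both values of cover for Gimap3 rest on the GENCODE model, whose start lies 4332 bp from the RefSeq start. Cover by the RefSeq start was not counted. Between Gimap5 and Gimap3 lay an unmarked stretch of 9503 bp (48704209 to 48713711), in which 77.8% of 40-base words were unique, and the part of this in the missing mark was not tested.

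The mark came in long blocks. Of the 14 regions, 5 were at least 10 kb wide, a size reached by 1.99% of all H3K4me1 regions, and they added up to 75.8 kb. The widest, 23.1 kb from 48666366 to 48689464, held the starts of Gimap7 and Gimap1 and peaks 11 to 13. Regions of that width or more made up 0.216% of the list. A Runx3 peak was present in 6 of the 14 regions, against 28.6% of all regions. Of the 14, 12 were wider than the median of all regions (1801 bp). A wider region has more room for a peak, so these shares do not compare like regions. Peak 14 counted for 2 of the regions. The 8 regions without a peak included a block of 11.8 kb in the body of Gimap8 and one of 11.6 kb over most of Gimap6. Wide marked blocks were thus found with and without peaks.

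The 14 regions were separated by 13 breaks, of which the longest was the stretch of 9503 bp and the others were 91 to 1662 bp wide. A gap of at most 2 kb lay within 500 bp of the 5′ end of 5 genes, against 29.0% of all protein-coding genes. It began 263 bp downstream of the start of Gimap8, 155 bp downstream for Gimap9, 213 bp for Gimap6, 110 bp for Gimap5 and 169 bp for Gimap3, and was 91 to 1175 bp wide. The short Gimap1 transcript had such a gap 412 bp downstream, which makes 6. With RefSeq starts there were 5, since Gimap1 gained a gap and Gimap3 lost its own. At all of these starts the gap lay wholly downstream in the direction of transcription. Among all genes with such a gap 35.5% had it wholly downstream, and in 54.2% it covered the start, which the rule leaves no room for at the Gimap genes since their starts are marked. Among genes whose gap did not cover the start, 77.4% had it downstream, so that the side of the gap at the Gimap starts was the common one. The gaps at the first 5 starts consisted of 98.7 to 100% unique words, and the one at Gimap1 of 83.8%. This count was chosen after the positions had been seen. Of the gaps away from starts, the pair inside Gimap5 had 56.5% and 54.2% unique words, and the part of this in those gaps was not tested.

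**Figure D3:**
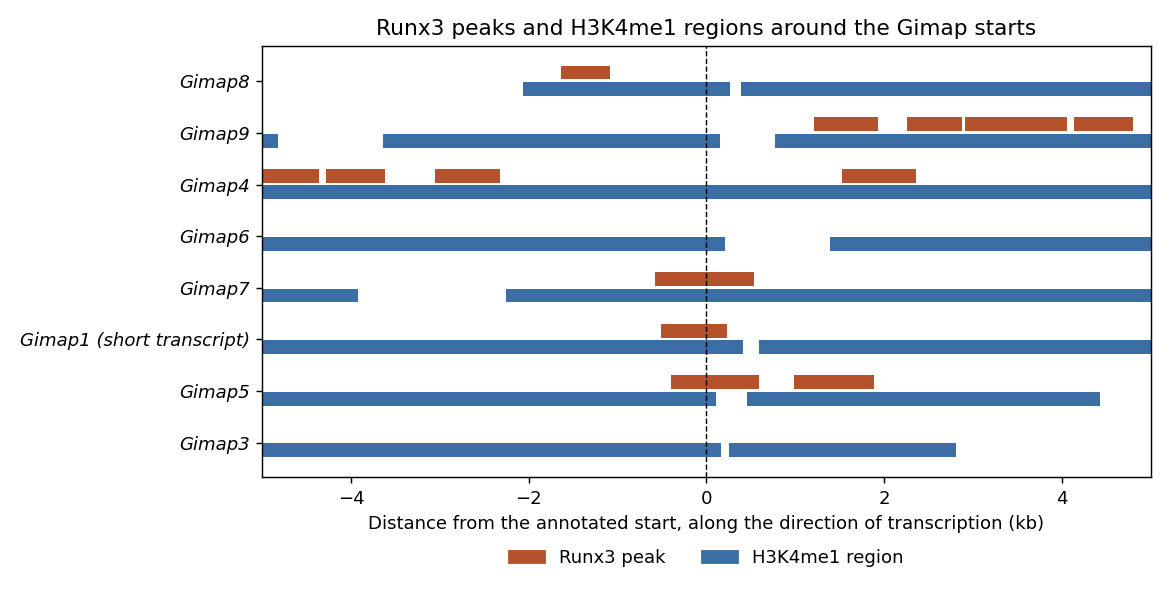
Runx3 peaks (upper bars) and H3K4me1 regions (lower bars) within 5 kb of the annotated start of each Gimap gene, with the distance along the direction of transcription in kb on the x axis and Gimap1 shown by its short transcript. Peaks cover the starts of Gimap7, Gimap1 and Gimap5, and at Gimap8, Gimap9, Gimap6, Gimap1, Gimap5 and Gimap3 the H3K4me1 break nearest to the start lies to the right of the dashed line that marks it, 110 to 412 bp away.

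Runx3 and the breaks coincided at 1 place only. Peak 14 spanned the gap of 353 bp at the Gimap5 start and so touched the regions on both sides, with its midpoint still inside a marked region. At Gimap7 the peak lay within an unbroken region, and at Gimap8, Gimap9, Gimap6 and Gimap3 the gap held 0 peaks.

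The bases around the Gimap starts were poor in CpG dinucleotides. In the 1 kb centred on the 5′ end the ratio of observed to expected CpG was 0.0794 to 0.30 with a median of 0.205, against a median of 0.549 over all protein-coding genes. Of all genes, 32.8% were at or below the highest Gimap value. In the 250 bases before the 5′ end, 6 of 8 genes held a RUNX match, against 37.5% of all genes, and 2 of 8 (Gimap6 and Gimap5) an ETS match, against 12.5%. The windows of Gimap7 and Gimap1 overlap in this count. Gimap6 and Gimap3, the genes with the fewest peaks, were the pair without a RUNX match there, and a link between these was not tested. For Gimap3 this window and the CpG value rest on the GENCODE start, which lies 4332 bp from the RefSeq start. The median GC content was 46.0% in the cluster peaks and 50.7% over all peaks.

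**Figure D4:**
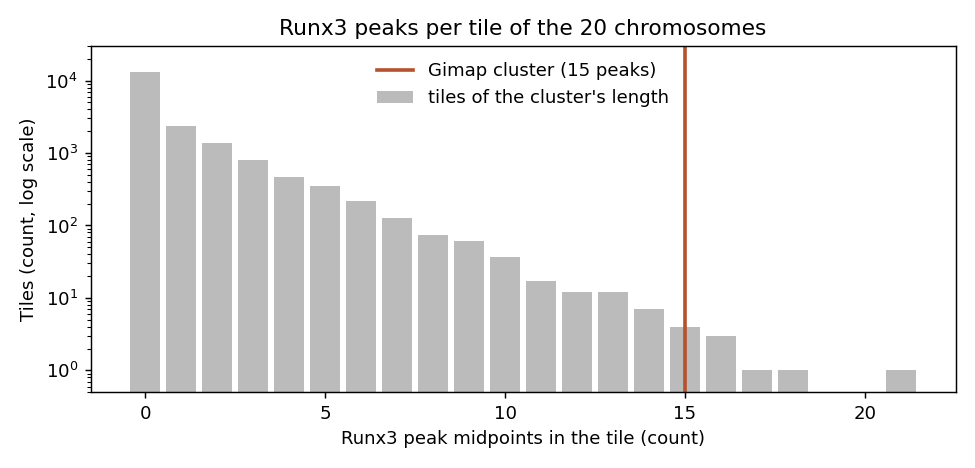
Number of tiles (y axis, log scale) by the count of Runx3 peak midpoints in the tile (x axis), for 18936 tiles of the length of the Gimap cluster on 20 chromosomes. The line marks the 15 peaks of the cluster, and 10 tiles hold as many or more, up to 21.

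The neighbours of the cluster were compared to see where the marked chromatin ended. Of the 8 other protein-coding genes within 100 kb of the outer gene ends, 4 had a Runx3 peak within 10 kb (44.3% of all genes did), namely Lrrc61, Gm5111, Repin1 and Zfp775, with 1 or 2 each. Rarres2, Tmem176b, Tmem176a and Gm7932 had 0. All 8 had some H3K4me1, but it covered 3.29 to 30.9% of their windows, below the lowest Gimap gene.

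Interferon-inducible GTPases are another set of immune GTPases in gene clusters, and they defend cells against intracellular pathogens. Of 11 genes, 7 had a Runx3 peak within 10 kb and none had more than 2, with a median of 1, and 44.3% of all genes had a peak. The median was 3.5 for the Gimap genes and also 3.5 for the NKC markers. Gimap windows share peaks whereas the NKC markers lie apart, so equal medians do not mean equal binding per gene. The median H3K4me1 cover of the interferon-inducible GTPases was 21.9%, against 83.1% for the Gimap genes, 71.1% for the NKC markers and 7.70% for all protein-coding genes. The highest were Gbp4 with 54.2% and Irgm2 with 50.2%, while Gbp6 had 9.71% and 0 peaks.

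Several Gimap proteins have been linked to the Bcl2 family, which sets whether lymphocytes survive. Of 10 genes of this pathway, 9 had a Runx3 peak within 10 kb and 6 had one within 1 kb of the 5′ end, against 44.3% and 24.7% of all protein-coding genes. The survival genes Bcl2 (8 peaks, 59.9% cover), Bcl2l1 (5 peaks, 58.3%) and Mcl1 (3 peaks, 65.9%) were each bound at the 5′ end. Their lengths differ, with 176 kb for Bcl2, 64.4 kb for Bcl2l1 and 4.46 kb for Mcl1, so these counts do not compare density. Of the pro-apoptotic genes, Bcl2l11 had 5 peaks and 39.3% cover, Bak1 2 peaks and Bax 1, all with 1 at the 5′ end, whereas Bid, Bbc3 and Pmaip1 had 1 peak each away from it and Bad had 0. The median cover of the 10 was 31.1%.

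**Figure D5:**
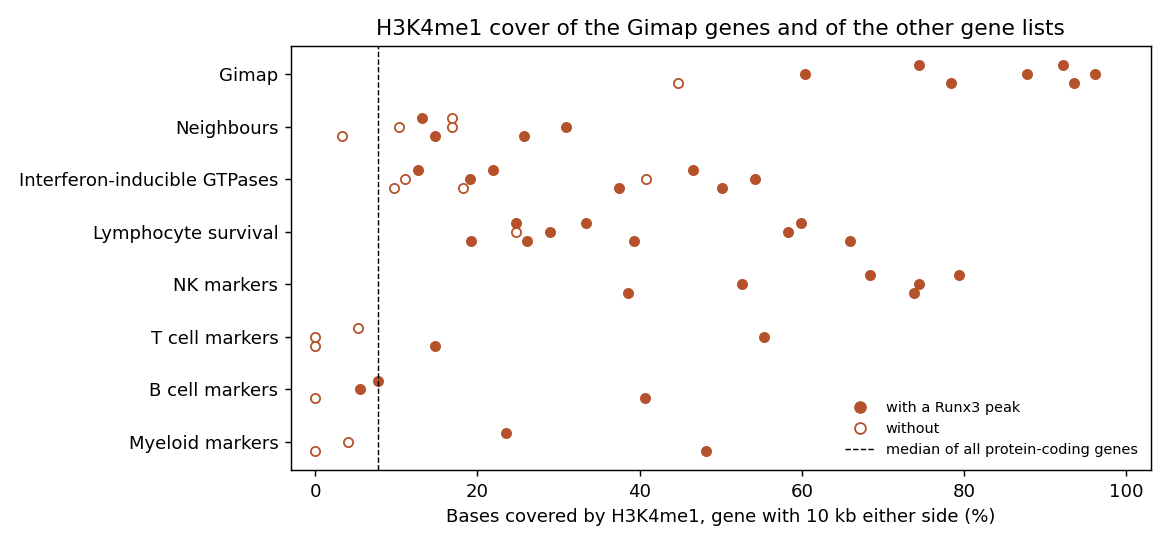
Share of bases covered by H3K4me1 (x axis, %) in the gene with 10 kb on either side, 1 point per gene, for the Gimap genes and the other lists; filled points have a Runx3 peak within 10 kb, and the dashed line is the median of all protein-coding genes, 7.70%. The 8 Gimap genes lie between 44.7 and 96.2% and the 6 NKC markers between 38.6 and 79.4%, and genes of the other lists reach 65.9% at most.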

How the data were processed

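ChIP-seq was performed on freshly isolated resting NKC from ICR mice with antibodies to Runx3 or H3K4me1 and with NIS. Cells were sorted on NKp46 per the labels and on DX5 per the study's methods, and their number of donors and age are not given in the sources used here. The authors aligned short reads to mm9 with ELAND (CASAVA 1.7 in the submitters' processing notes), kept unique alignments and called regions with MACS on the joined reads of their repeats, against NIS. The deposited lists hold start and end positions and no score, read count or NIS signal, so depth per region is unknown. A narrow or weak site that did not pass calling cannot be told from an unbound one.

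Positions were converted to 1-based and set against NCBIM37 (mm9) with GENCODE vM1 genes, in Python 3.11.15 with pysam 0.24.0 and numpy 2.4.6. A region was counted when it shared at least 1 bp with a window. RefSeq start windows (GRCm38.p6) were placed by exact match on mm9, and 40-base words were counted on both strands without mismatches. Peaks were compared with BLASTN 2.17.0 (word size 11). Interval and motif counting were checked on simulated data. The named genes are the 8 members, all their protein-coding neighbours within 100 kb, and fixed lists of survival genes, interferon-inducible GTPases and cell type markers. Members and lists were chosen with earlier results of these data known. The counts of gaps at starts, CpG content, runs of neighbouring peaks, tiles rich in genes and unique words were added after values had been seen. The value of 1 marker gene is not reported here.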

Additional observations from a re-analysis of the deposited data

How the results depend on the processing

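Across the summary values there were 27 alternative settings, of which 3 were added once the data had been seen, and 21 stayed within 1.5 times the main count or 5 percentage points of the main share. The median of Runx3 peaks per Gimap gene window (3.5) was 1 in the gene bodies alone and 2 with peaks wider than the median of all peaks. The same width limit left 8 of the 15 cluster peaks. The median of H3K4me1 regions per window (3) was 6 with 20 kb on either side, and joining regions within 500 bp left 8 regions of 14 in the cluster. Without flanks the covered share rose from 79.9% to 85.8%. For single genes and counts of genes, 97 of 126 alternatives stayed within 1.5 times. The number of Gimap genes with a Runx3 peak ranged from 5 (gene bodies) to 8 (20 kb). The share of all protein-coding genes was counted at 10 kb only (44.3%), so neither count has a share beside it. The shifts under other settings follow from the window or the regions left in. Peaks were called once on joined reads, so leaving out a replicate was not possible. No paired analysis was possible because each antibody had a single list.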
